A study of Mus musculus with 13 samples.

Results

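The p53 and Cdkn2a tumor suppressor axis was followed through 6 genes, Trp53, Mdm2, Mdm4, Cdkn2a, Cdkn2b and Cdkn1a, which were chosen by name from the 43629 genes of the expression table and are all present in it. Their expression was read in 13 RNA sequencing libraries of mouse thymus and thymic lymphoma. Of these, 3 were wild-type (WT) thymuses of C57BL/6 mice, sequenced for an earlier series and used again, 5 were thymic lymphomas of Atm-/- mice on a 129S6/SvEv background, and 5 were thymic lymphomas of Rag2c/c p53-/- mice on a mixed C57BL/6 and 129S6/SvEv background. Atm-/- mice lack the kinase ATM. Rag2c/c mice make a RAG2 protein without its C terminus, the RAG2 core, and these mice were also p53 deficient. The labels give neither the ages of the mice nor whether each lymphoma came from a different mouse. Strain, series and genotype go together, so their parts in any difference below cannot be told apart.

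p53, the product of Trp53, is a transcription factor that halts the cell cycle or triggers cell death after DNA damage or oncogene activity. MDM2 and MDM4 hold p53 in check, MDM2 by marking it for degradation, and Mdm2 is itself a p53 target gene. Cdkn2a encodes p19Arf, which inhibits MDM2, and p16Ink4a, which like the product of Cdkn2b inhibits the G1 kinases CDK4 and CDK6, while Cdkn1a encodes p21, the cell cycle inhibitor through which p53 arrests cells. ATM acts upstream by phosphorylating p53 and MDM2, and mice that lack ATM or p53 are known for thymic lymphomas.

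Values are normalized counts, read counts per gene divided by the authors' size factor of each library and rounded. They sum to between 19788898 and 21591289 per library, so the totals no longer show depth. From the steps between low values, depth was estimated at 38.83, 6.66 and 34.13 M reads for WT replicates 1 to 3. The estimates were 23.64, 9.23, 13.52, 11.2 and 20.65 M for Atm-/- replicates 1 to 5, and 21.73, 6.37, 19.45, 13.74 and 24.71 M for Rag2c/c p53-/- replicates 1 to 5. A single read was worth between 0.51 and 3.375 normalized counts, which limits the precision of values below about 10. T lineage genes matched the labelled tissue in each library. The summed level of 8 such genes (Cd3d, Cd3e, Cd3g, Lck, Thy1, Cd4, Cd8a and Cd8b1) lay between 111235 and 180693 in WT thymus, between 68764 and 133009 in Atm-/- lymphomas and between 86559 and 165924 in Rag2c/c p53-/- lymphomas, and none of the 8 was at 0 in any library.

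Differences were tested with limma on log2(value + 1) over the 15872 genes with at least 10 normalized counts in at least 3 libraries. To be called, a gene needed an adjusted p (Benjamini-Hochberg) below 0.05, a log2 difference of 1 or more in either direction and a group mean of 10 or more on at least 1 side. All 6 genes of the axis passed the filter on low values, but Cdkn2a only through the 10 lymphomas, so its call against thymus follows from that selection. Against WT thymus, 3 of the 6 were called in Atm-/- lymphomas, beside 29.5% of all genes tested, and 4 of the 6 in Rag2c/c p53-/- lymphomas, beside 23.6%. Without Cdkn2a these counts were 2 and 3 of 5. Between the lymphoma groups 3 of the 6 were called, beside 7.84% of all genes. The libraries of the 2 groups did not overlap for 5 of the 6 genes in each comparison with WT thymus, where 51.3% (Atm-/-) and 43.9% (Rag2c/c p53-/-) of all genes did not overlap, and for 2 of the 6 between the lymphoma groups, beside 8.33%. Without Cdkn2a the counts against thymus were 4 of 5 in each comparison. Both comparisons with WT thymus share the same 3 thymuses, and so many genes differed from thymus that a call there sets a gene apart little.

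**Figure D1:**
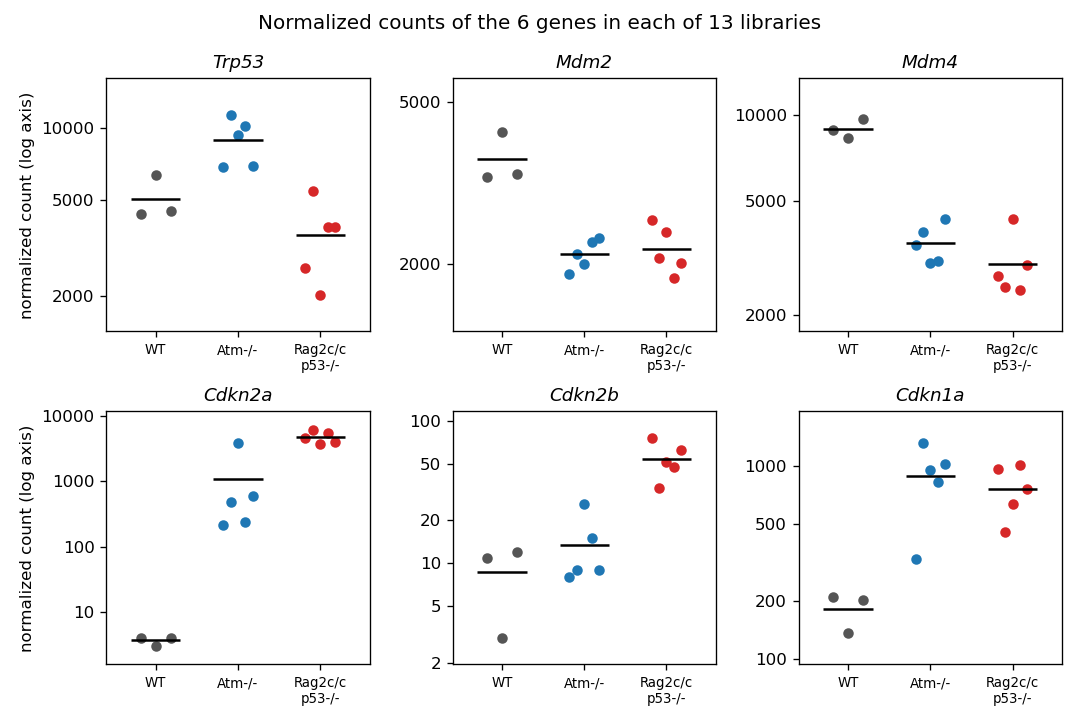
Normalized counts (log axis, scale differs between panels) of the 6 genes in each library, with 1 point per library and a line at the group mean, for 3 WT thymuses, 5 Atm-/- lymphomas and 5 Rag2c/c p53-/- lymphomas. Cdkn2a was at 3 or 4 in the thymuses and between 213 and 6197 in the lymphomas.

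The genes altered in these mice were read first. Atm (ENSMUSG00000034218, chromosome 9 from 53439149 to 53536740, GRCm38) was listed at 1990, 1559 and 2274 in WT replicates 1 to 3, at 732, 208, 445, 568 and 534 in Atm-/- replicates 1 to 5, and at 1248, 439, 1315, 552 and 1154 in Rag2c/c p53-/- replicates 1 to 5. All 10 lymphomas lay below the 3 thymuses. Atm fell, with a log2 difference of -2.06 in Atm-/- lymphomas (SE 0.42, limma, adjusted p = 0.0017) and of -1.16 in Rag2c/c p53-/- lymphomas (SE 0.42, limma, adjusted p = 0.0441), the latter a call that was lost in 10 of 20 other settings (limma, adjusted p from 0.0187 to 0.15 over them). It was lost without WT replicate 1 (-1.14), 2 (-1.31) or 3 (-1.04), Atm-/- replicate 3, 4 or 5 (-1.16 each) or Rag2c/c p53-/- replicate 2 (-0.92) or 4 (-1.01), and also with libraries scaled to equal totals or with neither trend nor robust moderation (-1.16 each). Transcripts from the Atm gene were thus still counted in the Atm-/- libraries, and which part of the gene is deleted was not given in the sources used here. Rag2 (ENSMUSG00000032864, chromosome 2 from 101624718 to 101632529), which encodes a subunit of the V(D)J recombinase, was at 4199, 5409 and 4502 in WT thymus. It was at 279, 1025, 265, 521 and 46 in Atm-/- lymphomas and at 790, 260, 537, 410 and 695 in Rag2c/c p53-/- lymphomas, so it was lower in every lymphoma than in any thymus. The log2 difference was -4.04 in Atm-/- lymphomas (limma, adjusted p = 0.000624), or -3.39 without Atm-/- replicate 5, the library at 46, and -3.22 in Rag2c/c p53-/- lymphomas (limma, adjusted p = 0.0036). Which part of the gene the Rag2c/c allele lacks was not given in the sources used here. Its part in the Rag2c/c p53-/- values was not tested. Rag2 lies within B230118H07Rik on the opposite strand, whose mean over the 13 libraries was 295, and the sources do not state the strand setting of the counting, so some reads may belong to that gene.

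Trp53 (ENSMUSG00000059552, chromosome 11 from 69580359 to 69591873) had its highest mean in Atm-/- lymphomas and its lowest in Rag2c/c p53-/- lymphomas. It was listed at 4387, 6341 and 4498 in WT replicates 1 to 3. In Atm-/- replicates 1 to 5 it was at 6853, 11318, 9340, 10202 and 6955, and in Rag2c/c p53-/- replicates 1 to 5 at 2616, 5461, 2018, 3863 and 3884. The 5 Atm-/- lymphomas all lay above the thymuses, whereas Rag2c/c p53-/- values ran from below to within the range of the thymuses. In each group replicate 2 had the lowest estimated depth. It was also the highest of its group in Trp53 and in the T lineage sum, and the lowest in Atm. The part of depth in these values was not tested. The group means were 5075 ± 1098 (SD, n = 3), 8934 ± 1981 (SD, n = 5) and 3568 ± 1330 (SD, n = 5). Rag2c/c p53-/- lymphomas had 0.399 times the mean of Atm-/- lymphomas, with no overlap, a log2 difference of -1.38 (95% confidence interval -1.91 to -0.85, limma, adjusted p = 0.00328). Against WT thymus the log2 difference was 0.81 in Atm-/- lymphomas (0.19 to 1.42, limma, adjusted p = 0.0342), under the fold threshold, and -0.57 in Rag2c/c p53-/- lymphomas (-1.18 to 0.04, limma, adjusted p = 0.131). Neither was called. The null allele of the Rag2c/c p53-/- mice was not given in the sources used here, so reads of the Trp53 gene, which may come from exons that the allele keeps, do not check the label.

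Mdm2 and Mdm4, the negative regulators of p53, were lower in every lymphoma than in any thymus. Mdm2 (ENSMUSG00000020184, chromosome 10 from 117688888 to 117710758) was at 3279, 4223 and 3335 in WT thymus. It was at 1883, 2108, 1998, 2260 and 2310 in Atm-/- lymphomas and at 2556, 2067, 2397, 1846 and 2010 in Rag2c/c p53-/- lymphomas. The lymphoma groups overlapped almost completely, and their means were 0.585 and 0.602 times that of thymus. With log2 differences of -0.77 (95% confidence interval -1.08 to -0.46, limma, adjusted p = 0.000965) and -0.73 (-1.04 to -0.42, limma, adjusted p = 0.00176), Mdm2 passed the p threshold in both comparisons but not the fold threshold. Between the lymphoma groups its log2 difference was 0.04, with an interval from -0.23 to 0.31 (limma, adjusted p = 0.891).

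Mdm4 (ENSMUSG00000054387, chromosome 1 from 132959484 to 133030561), which binds p53 and blocks its activation domain, moved further. It was at 8896, 8310 and 9666 in WT thymus, at 3523, 3919, 3048, 3100 and 4334 in Atm-/- lymphomas and at 2745, 2516, 4352, 2440 and 2994 in Rag2c/c p53-/- lymphomas. Rag2c/c p53-/- replicate 3 stood above the other 4 of its group, at about the level of the highest Atm-/- lymphoma. Mdm4 fell, with a log2 difference of -1.33 in Atm-/- lymphomas (SE 0.19, limma, adjusted p = 0.000125) and of -1.604 in Rag2c/c p53-/- lymphomas (SE 0.19, limma, adjusted p = 5.72e-05), to 0.4 and 0.336 times the thymus mean. The lymphoma groups overlapped, with a log2 difference of -0.27 between them (95% confidence interval -0.62 to 0.08, limma, adjusted p = 0.314). A pseudogene on the opposite strand, Gm29257, lies within Mdm4, and its mean over the 13 libraries was 19.7.

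Cdkn2a (ENSMUSG00000044303, chromosome 4 from 89274471 to 89294653, minus strand) showed the widest range of the 6 genes. It was close to the floor in thymus, with 4, 3 and 4 normalized counts in WT replicates 1 to 3, which correspond to about 16 reads in all. In Atm-/- replicates 1 to 5 it reached 213, 489, 3808, 243 and 607, and in Rag2c/c p53-/- replicates 1 to 5 it reached 4577, 6197, 3759, 5542 and 4036. All 10 lymphomas lay far above the thymuses, the Rag2c/c p53-/- lymphomas close together and the Atm-/- lymphomas spread out, with replicate 3 within the range of the Rag2c/c p53-/- group and the other 4 well below it. The mean was 3.67 ± 0.577 (SD, n = 3) in thymus, 1072 ± 1538 (SD, n = 5) in Atm-/- lymphomas and 4822 ± 1027 (SD, n = 5) in Rag2c/c p53-/- lymphomas. These are ratios of 292 and 1315 to thymus, with approximate counting intervals of 180 to 511 and 810 to 2301 that cover only the error of the few thymus reads. The intervals pool these reads, whereas the thymus mean gives WT replicate 2, the library of lowest depth, the same weight as the others. They are therefore likely narrower than 95% confidence requires.

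The fitted log2 difference of Cdkn2a from WT thymus was 6.94 in Atm-/- lymphomas (95% confidence interval 5.46 to 8.41, limma) and 9.995 in Rag2c/c p53-/- lymphomas (8.52 to 11.47, limma), and p-values are left out because the gene passed the filter only through lymphomas. Both depend on the pseudocount, since the thymus values are so low, and were 6.23 and 9.28 with a pseudocount of 4. Between the lymphoma groups the log2 difference was 3.06 (1.78 to 4.33, limma, adjusted p = 0.00531), with the groups overlapping through Atm-/- replicate 3 alone. Without that library the Atm-/- mean was 388 ± 191 (SD, n = 4), the ratio to thymus 106 and the ratio of Rag2c/c p53-/- to Atm-/- lymphomas 12.4 instead of 4.5. The fitted differences were then 6.25 from thymus and 3.75 between the lymphoma groups. Reads were counted per gene, so the values do not separate the transcripts of p16Ink4a and p19Arf, which share exons. In bulk RNA, a change in the number of expressing cells and a change in RNA per cell cannot be told apart, for this gene or those that follow.

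Cdkn2b (ENSMUSG00000073802, chromosome 4 from 89306289 to 89311032), the neighbour of Cdkn2a, stayed low throughout but was higher in Rag2c/c p53-/- lymphomas than in any other library. It was at 11, 3 and 12 in WT thymus, at 8, 9, 26, 15 and 9 in Atm-/- lymphomas and at 76, 34, 51, 47 and 62 in Rag2c/c p53-/- lymphomas. Atm-/- replicate 3, the library highest in Cdkn2a within its group, was also the highest here. Cdkn2b rose in Rag2c/c p53-/- lymphomas by a log2 difference of 2.64 from thymus (95% confidence interval 1.54 to 3.74, limma, adjusted p = 0.00158) and of 2.02 from Atm-/- lymphomas (1.06 to 2.97, limma, adjusted p = 0.0106), in 5 of 5 libraries each. Atm-/- lymphomas overlapped with thymus, at a log2 difference of 0.62 whose interval ran from -0.48 to 1.72 (limma, adjusted p = 0.338). The thymus values rest on about 43 reads, and the ratio of the Rag2c/c p53-/- mean to the thymus mean, 6.23, has an approximate counting interval of 4.63 to 8.61. It pools the reads in the same way and is likely too narrow.

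**Figure D2:**
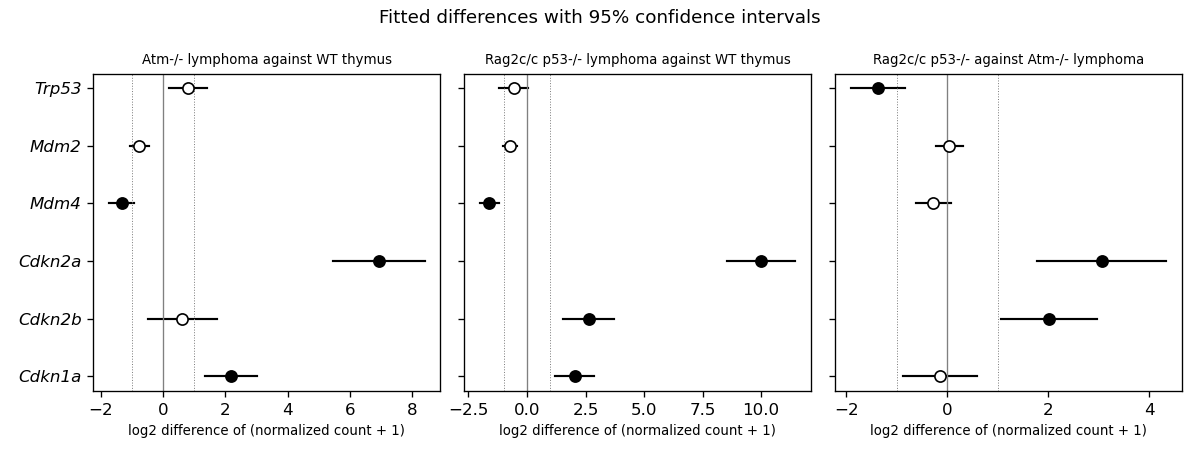
Fitted log2 differences of (normalized count + 1) with 95% confidence intervals from limma for the 6 genes in 3 comparisons, where filled points were called, open points were not, dotted lines mark a difference of 1 in either direction and the horizontal scale differs between panels. Cdkn2a lies furthest to the right in each panel, at 6.94, 9.995 and 3.06, and Mdm4 is called lower in both comparisons with WT thymus, at -1.33 and -1.604.

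The table lists 38 genes within 500 kb of Cdkn2a, of which 5 were tested and 20 were at 0 in all 13 libraries. Mtap, a housekeeping gene of methionine salvage on the other side of Cdkn2a from Cdkn2b, was at 1317, 1192 and 1327 in WT thymus, at 1709, 2281, 2604, 1950 and 2260 in Atm-/- lymphomas and at 3973, 3127, 2629, 2852 and 3667 in Rag2c/c p53-/- lymphomas. No group overlapped with another, and Mtap was called in Rag2c/c p53-/- lymphomas against thymus (log2 difference 1.33, SE 0.17, limma, adjusted p = 9.42e-05) but lay under the fold threshold in Atm-/- lymphomas (0.74, SE 0.17, limma, adjusted p = 0.00321) and between the lymphoma groups (0.59, SE 0.15, limma, adjusted p = 0.0201). The other tested neighbours were transcripts of unassigned function beyond Cdkn2b. Gm12610 was at 0 in the 3 thymuses, at 4, 23, 12, 17 and 10 in Atm-/- lymphomas and at 38, 44, 17, 16 and 44 in Rag2c/c p53-/- lymphomas. Gm12609, also at 0 in the thymuses, was at 2, 0, 9, 6 and 5 in Atm-/- lymphomas and at 19, 3, 10, 16 and 28 in Rag2c/c p53-/- lymphomas. These genes passed the filter on low values only through lymphomas, Gm12609 through 4 Rag2c/c p53-/- lymphomas alone, so a test against thymuses at 0 follows from that selection and its p-values are left out.

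**Figure D3:**
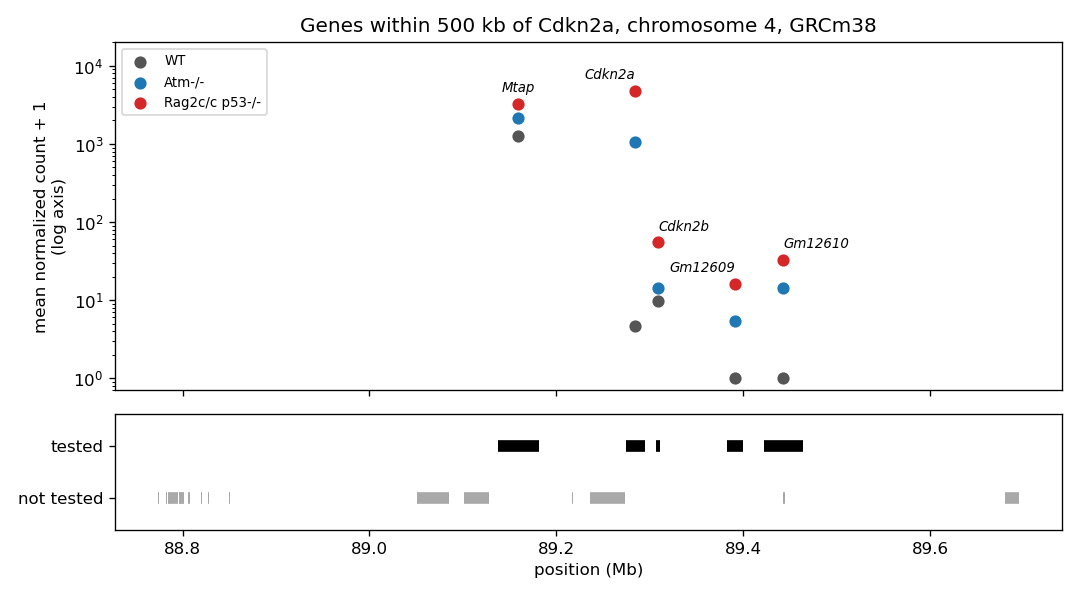
Genes within 500 kb of Cdkn2a on chromosome 4 (GRCm38), by position in Mb, with the mean normalized count + 1 of each group (log axis) for the 5 genes tested in the upper panel and the extent of tested and untested genes in the lower panel. Each of the 5 genes has its highest mean in Rag2c/c p53-/- lymphomas, 4822 for Cdkn2a and 3249.6 for Mtap.

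Clstn1 (149586468 to 149648899, r = 0.992) and Mrpl37 (107055874 to 107066868, r = 0.989), which also lie on chromosome 4, had the patterns over the 13 libraries most like that of Cdkn2a, by Pearson's r of log2(value + 1). Clstn1 was at 263, 260 and 276 in WT thymus, at 801, 813, 1909, 782 and 936 in Atm-/- lymphomas and at 1971, 1820, 2053, 1712 and 1585 in Rag2c/c p53-/- lymphomas. It thus repeated the order of the groups and the high Atm-/- replicate 3. These r values describe 13 libraries in 3 groups, and differences between the groups enter all of them. For Cdkn2b the most alike genes were Mcam (r = 0.948), Fbxo10 (r = 0.943), which is also on chromosome 4, and Caskin2 (r = 0.939). Mdm2 was most like Ccnl1 (r = 0.96), Rbm5 (r = 0.959) and Ctdsp2 (r = 0.947), and Mdm4 most like Atg16l1 (r = 0.979), Ighv10-1 (r = 0.972) and Prkx (r = 0.971). Trp53 was most like Fam32a (r = 0.958), Mat2a (r = 0.939) and Rpl39 (r = 0.921), and Cdkn1a most like Rmdn3 (r = 0.943), Abhd12 (r = 0.931) and Pkig (r = 0.927), all 3 on chromosome 2.

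Cdkn2a has a separate start for each of its proteins, and since Cdkn2a and Cdkn2b were both highest in Rag2c/c p53-/- lymphomas, the sequences around these starts are shown. They are RefSeq windows of 300 bases on GRCm38.p6, written 5′ to 3′ on the minus strand, with capitals for each GC box (GGGCGG on either strand). The start of p19Arf lies in chr4:89294570-89294869, that of p16Ink4a in chr4:89282143-89282442 and that of Cdkn2b in chr4:89310983-89311282.
Cdkn2a, p19Arf start: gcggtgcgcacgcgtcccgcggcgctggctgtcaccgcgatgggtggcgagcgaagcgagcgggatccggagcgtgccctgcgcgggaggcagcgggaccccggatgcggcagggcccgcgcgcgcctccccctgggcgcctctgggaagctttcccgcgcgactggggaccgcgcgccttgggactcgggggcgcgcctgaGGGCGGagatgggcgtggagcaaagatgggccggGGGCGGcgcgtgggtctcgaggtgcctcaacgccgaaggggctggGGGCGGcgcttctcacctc
Cdkn2a, p16Ink4a start: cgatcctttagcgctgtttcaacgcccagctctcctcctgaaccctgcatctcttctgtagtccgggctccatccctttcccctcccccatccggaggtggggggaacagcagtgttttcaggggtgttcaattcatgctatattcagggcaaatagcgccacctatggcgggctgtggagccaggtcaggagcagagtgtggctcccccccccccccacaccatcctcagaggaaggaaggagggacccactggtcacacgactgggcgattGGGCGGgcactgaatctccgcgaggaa
Cdkn2b start: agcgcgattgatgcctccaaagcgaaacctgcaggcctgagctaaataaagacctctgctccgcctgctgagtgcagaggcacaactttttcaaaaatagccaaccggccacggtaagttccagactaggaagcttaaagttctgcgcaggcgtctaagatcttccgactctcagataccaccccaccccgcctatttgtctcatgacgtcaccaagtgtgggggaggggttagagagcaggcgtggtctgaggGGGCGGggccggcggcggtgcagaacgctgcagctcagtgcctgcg
The p19Arf window was 77% G and C and held 45 CG dinucleotides, against 60.3% and 12 in the p16Ink4a window, 57.7% and 18 in the Cdkn2b window, and medians of 52.7% and 7 over all 32851 windows. It held 3 GC boxes, and the other 2 windows held 1 each, a motif found in 35.7% of all windows. It also held an E2F motif (TTTCCCGC or TTTGGCGC on either strand) at bases 152 to 159, clear of the GC boxes, which 1.56% of all windows contain, and the p16Ink4a and Cdkn2b windows held none. Such matches are a description of the sequence only.

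Cdkn1a (ENSMUSG00000023067, chromosome 17 from 29090979 to 29100722), the classical p53 target and cell cycle inhibitor, was higher in every lymphoma than in any thymus, with or without a p53-/- genotype. It was at 208, 136 and 202 in WT thymus, at 329, 1320, 957, 827 and 1024 in Atm-/- lymphomas and at 960, 453, 634, 1015 and 760 in Rag2c/c p53-/- lymphomas. Atm-/- replicate 1 was the lowest lymphoma and lay nearest to the thymuses. The means were 4.9 and 4.2 times that of thymus. Cdkn1a rose by a log2 difference of 2.18 in Atm-/- lymphomas (95% confidence interval 1.34 to 3.01, limma, adjusted p = 0.000685) and of 2.03 in Rag2c/c p53-/- lymphomas (1.19 to 2.87, limma, adjusted p = 0.00148). The lymphoma groups overlapped, and their log2 difference was -0.15 with an interval from -0.87 to 0.58 (limma, adjusted p = 0.835).

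Because Cdkn1a is a p53 target, the window at its upstream start is shown with p53 half-sites in capitals (the 10-base p53 half-site consensus, searched on both strands without mismatch). It lies in chr17:29090729-29091028 on the plus strand of GRCm38.p6.
Cdkn1a, upstream start: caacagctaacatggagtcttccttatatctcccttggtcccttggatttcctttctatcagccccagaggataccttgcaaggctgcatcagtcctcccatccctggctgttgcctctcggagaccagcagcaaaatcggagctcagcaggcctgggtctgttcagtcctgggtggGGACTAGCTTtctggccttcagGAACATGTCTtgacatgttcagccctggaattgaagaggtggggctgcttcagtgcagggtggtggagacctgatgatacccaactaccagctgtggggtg
This window held 2 half-sites, at bases 178 to 187 and 200 to 209, and 8.36% of the 32851 windows held at least 1. The share of windows with 2 was not counted. The stretch that directly follows the second half-site, tgacatgttc, differs from the consensus at 1 base and is not in capitals. The 2 marked half-sites are thus not shown to form a pair. The window at the second annotated start of Cdkn1a, chr17:29093519-29093818, held none. In the windows of Trp53 and Mdm2 there was 1 half-site each.

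Levels of different genes were compared per kb of exon. The length was that of all annotated exons of a gene together, from 1172 bases for Cdkn2a to 14798 for Mdm4. It can exceed that of the transcripts expressed, so the order is approximate. Before this scaling Mdm4 had the highest mean of the 6 in thymus, 8957 normalized counts. In WT thymus the order from high to low was Trp53, at a mean of 1255 normalized counts per kb, then Mdm2 at 711 and Mdm4 at 605, whose ranges overlapped, then Cdkn1a at 51.2, Cdkn2b at 6.24 and Cdkn2a at 3.13, the last pair again with overlapping ranges. In Atm-/- lymphomas Trp53 led at 2209 per kb, followed by Cdkn2a at 915, Mdm2 at 415, Cdkn1a at 251 and Mdm4 at 242, with each range overlapping the next, and Cdkn2b was last at 9.64. The place of Cdkn2a rests on Atm-/- replicate 3, without which its mean was 331 per kb, below that of Mdm2. In Rag2c/c p53-/- lymphomas Cdkn2a, last in thymus, stood first at 4115 per kb and did not overlap with Trp53 at 882. Mdm2 at 428 overlapped with Trp53, Cdkn1a at 215 overlapped with Mdm4 at 203, and Cdkn2b was last at 38.8.

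Other genes of the pathway were taken from lists and are described by their counts. Among 25 tested genes that belong to the p53 family or regulate p53 protein, 1 was called higher and 3 lower in Atm-/- lymphomas against thymus, beside 12.6% and 17.0% of all genes. The list's median log2 difference was -0.32, and that of all genes was -0.02. Ppp1r13b, which encodes ASPP1, a partner of p53 that promotes cell death, fell from 2073 to 299 (log2 difference -2.98, limma, adjusted p = 0.00218), and its inhibitory relative Ppp1r13l, which encodes iASPP, rose from 79.0 to 529 (2.68, limma, adjusted p = 0.000133), each in 5 of 5 lymphomas. The others called lower were Atm itself and the acetyltransferase gene Crebbp (-1.06, limma, adjusted p = 7.66e-05, 5 of 5 lymphomas), which fell under the fold threshold without WT replicate 3 (-0.99).

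In Rag2c/c p53-/- lymphomas 0 of the 25 were called higher and 3 lower by limma, beside 9.77% and 13.9% of all genes, with a list median of -0.25, and at an unadjusted p under 0.05 there were 5 higher and 10 lower, beside 22.4% and 24.9% of all genes. The 3 were the p53 relative Trp63, from 19.7 to 1.6 with overlapping groups (-2.80 by limma), Hipk2, whose kinase phosphorylates p53, from 449 to 165 in 5 of 5 lymphomas (-1.59, limma, adjusted p = 0.0300), and Atm. These calls were fragile, and Trp63, which reached 10 in 2 thymuses, 1 Atm-/- lymphoma and 0 Rag2c/c p53-/- lymphomas, passed the filter only through libraries outside the group called lower, so its p is left out. It was tested in 17 of 20 other settings and fell to the filter in the rest. Leaving out WT replicate 1 or 3, or Rag2c/c p53-/- replicate 2 or 4, gave 0 calls in the list, and leaving out Rag2c/c p53-/- replicate 1 gave 5. Without WT replicate 1, 2 or 3 or Rag2c/c p53-/- replicate 2 or 4, Hipk2 was at -1.58, -1.72, -1.46, -1.44 and -1.32 and was not called, over settings with adjusted p from 0.00991 to 0.111 (limma), and Trp63 was at -2.52 without either of those Rag2c/c p53-/- replicates. Its difference was -3.75 without WT replicate 2 and -1.83 with a pseudocount of 4.

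Between the lymphoma groups, where 4.33% and 3.51% of all genes were called higher and lower, Ppp1r13b was called higher (1456 against 299, 2.003, limma, adjusted p = 0.0323) and Ppp1r13l lower (169 against 529, -1.68, limma, adjusted p = 0.00566) in Rag2c/c p53-/- lymphomas, both without overlap, and the list median was -0.11. Without Atm-/- replicate 2, 3 or 4 or Rag2c/c p53-/- replicate 3 or 4, Ppp1r13b was not called, at log2 differences of 1.61, 1.99, 2.06, 1.56 and 1.77, and the list held 1 call. The same was true with only the libraries of the 2 groups in the fit (limma, adjusted p from 0.0249 to 0.0724 over 20 settings).

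Among 26 tested p53 target genes, 2 were called higher and 6 lower in Atm-/- lymphomas against thymus, beside 12.6% and 17.0% of all genes, with a list median of -0.28, and at an unadjusted p under 0.05 there were 6 higher and 9 lower, beside 25.1% and 27.7%. The death receptor gene Fas fell from 1640.0 to 183 (log2 difference -3.61, limma, adjusted p = 0.000267), and Pmaip1, which encodes the death-promoting protein NOXA, fell from 121 to 19.0 (-2.64, limma, adjusted p = 0.000790). Phlda3, an inhibitor of AKT, rose from 81.7 to 421 (2.21, limma, adjusted p = 0.00139), and the other gene called higher was the death receptor gene Tnfrsf10b, a call lost without WT replicate 2 (0.98) or Atm-/- replicate 3 (0.996). All 5 lymphomas showed the direction of each of these 4 genes. In Rag2c/c p53-/- lymphomas 2 were called higher and 3 lower, beside 9.77% and 13.9% of all genes, with a list median of -0.73, and at an unadjusted p under 0.05 there were 4 higher and 12 lower, beside 22.4% and 24.9%. Pmaip1 was at 26.4 (-2.31, limma, adjusted p = 0.00249) and Fas at 362 (-2.22, limma, adjusted p = 0.00802), lower than thymus in 5 of 5 lymphomas, whereas the stress-induced gene Sesn2 rose in 5 of 5 from 244 to 854 (1.80, limma, adjusted p = 9.92e-05). The others were Ddit4, higher, and Bbc3, which encodes the death-promoting protein PUMA, lower, a call lost without WT replicate 2 (-1.14). Without Rag2c/c p53-/- replicate 1 the number called was 8.

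Between the lymphoma groups 0 of the 26 p53 target genes were called higher and 4 lower by limma in Rag2c/c p53-/- lymphomas, beside 4.33% and 3.51% of all genes, with a list median of -0.03 beside -0.02 for all genes, and at an unadjusted p under 0.05 there were 6 higher and 10 lower, beside 13.8% and 12.4%. Phlda3 was at 90.4 in Rag2c/c p53-/- and 421 in Atm-/- lymphomas (log2 difference -2.18, limma, adjusted p = 0.00276), Zmat3, which encodes an RNA-binding protein, at 404 and 1052 (-1.19, limma, adjusted p = 0.0241), and the cyclin gene Ccng1 at 1458 and 2854 (-1.02, limma, adjusted p = 0.00485), each without overlap. Plk2 was at 34.4 and 98.6 with overlapping groups (-1.38, limma, adjusted p = 0.0443), a call lost in 12 of 20 other settings (limma, adjusted p from 0.0205 to 0.107). Those are the fit without a filter, the fit with only the libraries of the 2 groups and leaving out any 1 of the WT replicates, Atm-/- replicate 1, 4 or 5 or Rag2c/c p53-/- replicate 1, 2, 4 or 5, at log2 differences from -1.45 to -1.09. Zmat3 was not called without Atm-/- replicate 2 (-0.89) or 4 (-1.097) or with only the libraries of the 2 groups in the fit, with adjusted p from 0.0130 to 0.0598 over 20 settings (limma). Ccng1 fell under the fold threshold without Atm-/- replicate 5 (-0.96) or Rag2c/c p53-/- replicate 2 (-0.94) or 5 (-0.87). The number called was 7 without Atm-/- replicate 3, and 2 without Atm-/- replicate 4 or Rag2c/c p53-/- replicate 5 or with only the 2 groups in the fit. Crebbp, Tnfrsf10b, Ddit4, Bbc3 and Ccng1 were named after their values were seen.

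Of 20 tested regulators of the Ink4-Arf locus, which holds Cdkn2a and Cdkn2b, 2 were called higher and 2 lower in Atm-/- lymphomas and 2 higher and 1 lower in Rag2c/c p53-/- lymphomas, beside 12.6% and 17.0%, and 9.77% and 13.9%, of all genes, with list medians of -0.14 and -0.22. The oncogene Myc was at 2660.0 in thymus and rose to 8385 (log2 difference 1.62, limma, adjusted p = 4.90e-05) and 6968 (1.38, limma, adjusted p = 0.000233). Dmtf1, an activator of Arf, fell from 3442 to 1396 (-1.32, limma, adjusted p = 0.00135) and 1637 (-1.15, limma, adjusted p = 0.00423). E2f1, which stands in this list and the next, rose from 1049.7 to 2142 (1.03, limma, adjusted p = 0.000267) and 2101 (1.002, limma, adjusted p = 0.000449). All 10 lymphomas showed these directions for the 3 genes. In Atm-/- lymphomas E2f1 fell under the fold threshold without WT replicate 1 (0.96) or 3 (0.97) or Atm-/- replicate 4 (0.97) or 5 (0.97). In Rag2c/c p53-/- lymphomas it fell under the fold threshold without WT replicate 1 (0.94) or 3 (0.95) or Rag2c/c p53-/- replicate 2 (0.96), 4 (0.96) or 5 (0.999) or with a pseudocount of 4 (0.9998), and Dmtf1 without Rag2c/c p53-/- replicate 2 (-0.95), which left 1 call in the list.

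The Polycomb gene Cbx7, a repressor of the Ink4-Arf locus, was at 1993 in thymus, 657 in Atm-/- lymphomas (-1.68, limma, adjusted p = 0.00460, lower in 5 of 5) and 1731 in Rag2c/c p53-/- lymphomas. Of the 20 genes of its list, it was the 1 called between the lymphoma groups (1.33, limma, adjusted p = 0.0264). Of all genes, 4.33% were called higher and 3.51% lower there. The groups overlapped for Cbx7, and the list median was 0.03. By limma the list held 0 calls with only the libraries of the 2 groups in the fit, and also without Atm-/- replicate 5 or Rag2c/c p53-/- replicate 3 or 5, where the log2 difference of Cbx7 was 1.298, 1.13 and 1.20 (limma, adjusted p from 0.00574 to 0.0635 over 20 settings).

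The list of 18 G1 cyclin, kinase and Rb genes also held E2F genes and the kinase inhibitor genes Cdkn1b, Cdkn1c, Cdkn2c and Cdkn2d. Of the 18, 4 were called higher and 4 lower in Atm-/- lymphomas, beside 12.6% and 17.0% of all genes. In Rag2c/c p53-/- lymphomas 4 were called higher and 3 lower, beside 9.77% and 13.9%. The list medians were 0.02 and 0.17. The cyclin gene Ccnd2 fell from 6198 in thymus to 1011 (log2 difference -3.14, limma, adjusted p = 0.00432) and 149 (-5.56, limma, adjusted p = 0.000144), and Cdkn1c, which encodes the inhibitor p57, rose from 105 to 1092 (2.96, limma, adjusted p = 0.00174) and 1138 (3.23, limma, adjusted p = 0.00134), in all 10 lymphomas. Without Atm-/- replicate 4 the difference of Ccnd2 in Atm-/- lymphomas was -2.47. Cdkn1b, which encodes p27, fell from 6754 to 1865 in Atm-/- lymphomas, 5 of 5 (-1.88, limma, adjusted p = 4.45e-05). In Rag2c/c p53-/- lymphomas Ccnd1 rose in 5 of 5 from 237 to 4188 (3.90, limma, adjusted p = 0.0210), a call that was lost without WT replicate 1 (3.96), 2 (3.65) or 3 (4.09), over settings with adjusted p from 0.000873 to 0.0748 (limma). The number called was 5 without Atm-/- replicate 4 in the comparison of Atm-/- lymphomas with thymus, and 4 without Rag2c/c p53-/- replicate 4 in that of Rag2c/c p53-/- lymphomas.

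Between the lymphoma groups 1 of the 18 genes of the G1 list was called higher and 1 lower, beside 4.33% and 3.51% of all genes. The list median was 0.02. In Rag2c/c p53-/- lymphomas Ccnd1 was called higher (4188 against 800, 3.93, limma, adjusted p = 0.0265) and Ccnd2 lower (149 against 1011, -2.41, limma, adjusted p = 0.0286), both with overlapping groups. Ccnd1 was at 282, 27, 3068, 41 and 583 in Atm-/- lymphomas, so its mean there rests largely on replicate 3, and its difference was 4.87 without that library and 3.17 without Atm-/- replicate 2. That of Ccnd2 was -3.08 without Atm-/- replicate 4. With only the libraries of the 2 groups in the fit neither was called, which left 0 calls in the list by limma. Without Atm-/- replicate 4 or Rag2c/c p53-/- replicate 1, 2 or 5, Ccnd1 was not called, at 3.32, 3.73, 3.66 and 3.83 (limma, adjusted p from 0.00266 to 0.0642 over 20 settings). Without Atm-/- replicate 1, 2 or 5 or Rag2c/c p53-/- replicate 4 or 5, Ccnd2 was not called, at -2.06, -2.15, -2.25, -2.09 and -2.37 (limma, adjusted p from 0.000957 to 0.0713 over 20 settings). Leaving out each of these libraries left 1 call in the list, except that leaving out Rag2c/c p53-/- replicate 5, which took away both, left 0 by limma.

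Markers of other cells moved with the groups. Of 6 fibroblast genes 4, Col1a1, Col1a2, Col3a1 and Pdgfra, were called higher in each lymphoma group. Of all genes, 12.6% were called higher and 17.0% lower in Atm-/- lymphomas and 9.77% and 13.9% in Rag2c/c p53-/- lymphomas, and these shares stand beside each marker count against thymus. The summed level of the 6 was 176, 182 and 175 in WT thymus, 5357, 3488, 5012, 15853 and 8413 in Atm-/- lymphomas and 1085, 581, 1945, 1183 and 829 in Rag2c/c p53-/- lymphomas. Col1a2 or Col1a1 was the most abundant gene in each lymphoma, and Lum was at 0 in Atm-/- replicate 3 and Rag2c/c p53-/- replicates 2 and 5. Between the lymphoma groups 1 of the 6, Col1a2, was called, lower in Rag2c/c p53-/- lymphomas, beside 3.51% of all genes called lower. At an unadjusted p under 0.05 (limma), 0 of the 6 were higher and 4 lower there, beside 13.8% and 12.4% of all genes. Pdgfra was under 10 in all 3 thymuses and passed the filter only through lymphomas. Of 6 macrophage genes 5 were in the table, and 3 (Cd68, C1qb and Lyz2) and 2 (Cd68 and C1qb) of them were called higher in Atm-/- and Rag2c/c p53-/- lymphomas. Their sum, led by Lyz2 in all 13 libraries, was 4213, 3681 and 4149 in WT thymus, 9261, 7796, 8875, 14570 and 10076 in Atm-/- lymphomas and 5731, 4924, 6567, 10425 and 8173 in Rag2c/c p53-/- lymphomas. The part of these cells in the Cdkn1a, Cdkn2a and Cdkn2b values was not tested.

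B cell genes were lower in the lymphomas, whereas thymic epithelial genes were mixed. The sum of 6 B cell genes, of which 5 and 6 were called lower, was 1770, 1446 and 1677 in WT thymus, between 103 and 272 in Atm-/- lymphomas and between 92 and 506 in Rag2c/c p53-/- lymphomas, led by Cd79b or Cd79a. Of 6 thymic epithelial genes 3 and 4 were called lower, and Psmb11 was at 0 in 9 of the 10 lymphomas, while the means of Epcam and Ccl25 in Rag2c/c p53-/- lymphomas, 472 and 295, were above those of thymus, 251.7 and 277. Foxn1 and Psmb11 passed the filter only through the thymuses. The sum of all 6 was 1058, 725 and 1049 in WT thymus, between 189 and 609 in Atm-/- lymphomas and between 287 and 1320 in Rag2c/c p53-/- lymphomas, led by Epcam or Ccl25 in each library except Atm-/- replicate 4, where Krt5 led. The part of these cells in the lower Mdm2 and Mdm4 values was not tested. The endothelial sum was nearly all Pecam1 and ran from 1821 to 6194 over the 13 libraries, and of 3 tested genes 2, Cdh5 and Kdr, were called lower in Rag2c/c p53-/- lymphomas, where neither reached 10 in any library, so they passed the filter only through the other groups. Of 4 tested erythroid genes 1, Klf1, which passed the filter only through lymphomas, was called higher in each lymphoma group, and the sum, led by Hbb-bs, ran from 795 to 6166, highest in Atm-/- replicate 3. Among 6 genes of dividing cells 1, Aurkb, was called higher in each lymphoma group, and their sum lay between 34401 and 39788 in WT thymus, 28849 and 62287 in Atm-/- lymphomas and 33348 and 49498 in Rag2c/c p53-/- lymphomas. Among the 8 T lineage genes Cd8a and Cd8b1 were called lower in Atm-/- lymphomas against thymus. Between the lymphoma groups Cd8b1 was called higher in Rag2c/c p53-/- lymphomas, with overlapping groups, beside 4.33% of all genes called higher. The part of the T lineage and fibroblast differences between the lymphoma groups in those of Trp53, Cdkn2a and Cdkn2b was not tested.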

How the data were processed

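RNA of single-cell suspensions was made into stranded mRNA libraries. Per the submitters' processing notes, reads were aligned to GRCm38 (mm10) with STAR 2.4.0g1, with bcl2fastq 1.8.3, Picard and DESeq2 1.6.3 also used. For the WT thymuses, the study's methods add removal of duplicates, uniquely mapped reads and counting per gene of Ensembl. The deposited values are scores on the scale of the authors' size factors, normalized counts rounded to whole numbers, as read from the values. Whole reads could not be recovered in all libraries, and edgeR, which the plan held for raw counts, was not needed. The table also holds the authors' means, fold changes, dispersions and p-values, which were not used.

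Differences were tested with limma 3.58.1 in R 4.3.3, moderated robustly along a trend of variance on mean, over 13 libraries in 3 groups. It was also run on simulated data, of which no result is given here. Intervals of ratios apply Poisson limits of the pooled thymus reads, at 95%, to ratios of group means. They cover counting error only and are approximate, because the means weight the 3 thymuses equally whatever their depth. Figures, sums and motif counts were made in Python 3.11.15, exon lengths and overlaps come from GENCODE on GRCm38, and promoter windows from RefSeq on GRCm38.p6, which held windows for all 6 genes. The members and lists were chosen with earlier results of these data known. Genes to be named were the 6, Atm and Rag2, the 3 called genes of each list with the largest difference in each comparison, genes within 500 kb of Cdkn2a and the 3 genes most like each of the 6, of which 1 for Cdkn2a is not reported here. Alternatives covered scaling, filter, pseudocount, groups in the fit, moderation, the fold threshold, an exact permutation test and leaving out each library.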

Additional observations from a re-analysis of the deposited data

Results flagged for a closer look

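Of the 12 sets of 5 lymphomas, 6 genes in 2 groups, 2 held a library whose gap to the next passed the limit set for standing apart. How often chance would give such a gap in these counts was not tested. Gaps were taken on normalized counts. The tests used log2(value + 1), on which a gap at the top of a range is a smaller share of it. Neither flag therefore needs to hold on that scale, where the gaps were not taken. For Cdkn2a, Atm-/- replicate 3 at 3808 normalized counts was separated from the next library, at 607, by a gap of 0.89 of the group's whole range. For Mdm4, Rag2c/c p53-/- replicate 3 at 4352 was separated from the next, at 2994, by a gap of 0.71 of the range, which is barely past the limit.

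For 3 of the 6 genes the lymphoma groups differed from each other in a direct limma test, beside 7.84% of all genes tested. For these 3 they hence also differed in their difference from the shared thymuses. The log2 difference of Rag2c/c p53-/- from Atm-/- lymphomas was -1.38 for Trp53, 3.06 for Cdkn2a and 2.02 for Cdkn2b. The strains of the 2 groups also differ, so strain and genotype cannot be told apart.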

How the results depend on the processing

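All values below come from limma unless an exact test is named. The direction of each of the 6 genes in each comparison was kept under every setting tried, except between the lymphoma groups, where leaving out 1 library at a time gave log2 differences of -0.0242 to 0.0931 for Mdm2 and -0.47 to 0.0299 for Cdkn1a. Several of the settings cannot change a direction, as set out below. Mdm2 reversed without Atm-/- replicate 1 (-0.0038) or Rag2c/c p53-/- replicate 1 (-0.0242) or 3 (-0.0011), and Cdkn1a without Atm-/- replicate 2 (0.0299) or Rag2c/c p53-/- replicate 2 (0.0284), and the cause was not tested. With no fold threshold Trp53 (0.81) and Mdm2 (-0.77) in Atm-/- lymphomas and Mdm2 (-0.73) in Rag2c/c p53-/- lymphomas also passed against thymus, since only the p threshold then remained, and 5884 genes were called in Rag2c/c p53-/- lymphomas instead of 3750. In Atm-/- lymphomas against thymus the highest count over all settings was 7027 genes, instead of 4687. Leaving out 1 library gave 3401 to 4902 calls in Atm-/- and 2505 to 3956 in Rag2c/c p53-/- lymphomas against thymus, and 934 to 1315 between the lymphoma groups.

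In the 6 genes 370 of the values kept direction and side of the threshold, 3 newly passed it and 5 reversed. Part of these settings could not change a direction. The log2 difference stays the same without the filter, the trend or the fold threshold, with only the 2 groups compared, and in the exact test. It also stays the same when the library left out belongs to the group not compared. In these settings only the side of the threshold was open. The settings were also run for Atm, Rag2, the neighbours and the named list genes, an addition chosen after seeing the data, where 939 values kept their side, 74 no longer passed and 4 newly did. The exact permutation test was left unadjusted, and the smallest p it can give is 0.0357 for 5 against 3 libraries and 0.00794 for 5 against 5. No paired analysis was possible because the replicate numbers of the lymphomas follow the order of deposition and pair no library with another. Depth limits values under about 10 normalized counts, among them Cdkn2a and Cdkn2b in thymus.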
